A study of Homo sapiens with 6 samples.

Results

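The TNF receptor family of B cell survival was followed here as 10 genes, listed by symbol with earlier results of these data known. They were the ligands TNFSF13B and CD70 and the receptors TNFRSF13B, TNFRSF13C, CD27, TNFRSF8, TNFRSF9, TNFRSF1A, TNFRSF1B and TNFRSF21. All 10 were among the 23619 gene symbols of the files, and all 10 passed the filter on low values with which 11307 genes were tested. The cells were HG3, a lymphoblastoid B cell line of chronic lymphocytic leukaemia used in a transposon mutagenesis study of resistance to fludarabine, a purine nucleoside analogue. RNA sequencing gave 1 library for each of 3 control pools and 3 pools resistant to fludarabine, with the numbers 17, 18 and 28 used once in each group, and the labels also call the resistant libraries treated. Every library comes from 1 cell line, so the spread between pools is not a spread between donors. The dose of fludarabine, the time of exposure, whether drug was present at harvest and whether control pools carried transposon insertions were not stated in the labels.

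Members of the TNF superfamily are trimeric ligands and the receptors they cluster on the cell surface. Receptors without a death domain recruit TRAF adaptor proteins and signal to NF-kB, and receptors with one can also start caspase activation. In B cells the ligand BAFF (TNFSF13B) maintains survival through the BAFF receptor (TNFRSF13C), and shares the receptor TACI (TNFRSF13B) with the related ligand APRIL. CD70 and its receptor CD27 act between activated lymphocytes, and CD27 is a marker of memory B cells. CD30 (TNFRSF8) and 4-1BB (TNFRSF9) are receptors of activated lymphocytes.

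Values are FPKM, which divide fragment numbers by transcript length and library size, so levels can be set side by side between genes. Comparisons between libraries are less secure, because the FPKM summed over all genes differed. That sum was lowest in resistant 18 and highest in control 18. The main fit added no scaling between libraries, and quantile normalization was run only as an alternative. Relative depth, taken from the steps in low FPKM values, ranged from 1 in control 17 to 1.31 in resistant 28. Absolute depth is unknown, and no counting interval is given. Resistant 18 stood apart from the other libraries: weights estimated from how far each library scattered around its group were 0.162 for it and 1.03 to 1.93 for the rest. Some results that rest on it are therefore also given without it or without both libraries of pool 18. B cell markers were present: MS4A1 had 92.4 to 196 FPKM and CD79A 212 to 394, but BANK1 was listed at 0 in 5 libraries and had 0.0176 in resistant 28. Of 10 T cell markers 8 stayed under 1 FPKM in all 6 libraries, the CD3 genes CD3D, CD3E and CD3G among them, and LCK (20.4 to 62.2 FPKM) and TRAT1 (0.368 to 11.7) did not. Of 6 markers of NK cells, 5 stayed under 1 FPKM in all libraries, and their summed level was 0.739 to 1.54 in controls and 0.351 to 1.70 among resistant libraries. Of 8 myeloid markers 4 did so, CD14, LYZ, S100A8 and FCGR3A. The summed myeloid level was 11.2 to 19.4 FPKM among controls and 3.37 to 41.7 among resistant libraries, with CD33 and S100A9 the main contributors. In the resistant group against controls, 0 of the 19 tested markers of B, T, myeloid and plasma cells passed in limma, no NK marker reached the filter, and 4 had an unadjusted p under 0.05. Lower among these were the B cell gene CD37 by -0.86 (adjusted p = 0.294), LCK by -0.94 (0.197) and CD33 by -1.90 (0.217), and their part in the results was not tested.

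TNFRSF13B, which encodes TACI, was the only 1 of the 10 genes whose resistant libraries all lay above all controls, with 1.85-fold more FPKM on average. TNFSF13B was higher in pools 17 and 28 and level in pool 18. TNFRSF13C was lowest in resistant 18, with control 18 next, and CD70 was very abundant in both groups. In these bulk libraries fewer cells that express a gene and less RNA per cell cannot be told apart. None of the 10 passed the threshold of 0.05 after adjustment over all genes tested. The fit, limma on log2(FPKM + 1) with Benjamini-Hochberg adjustment, called 4 of 11307 genes (0.0354%). With no adjustment, 2 of the 10 had a p under 0.05, both higher among resistant libraries, where 13.1% of all genes tested did and 5.99% did upward. Groups without overlap, higher among resistant libraries, were found for 1 of 10 members and for 10.1% of all genes. A higher value in all 3 pools was found for 1 of 10 members and for 18.9% of genes. A lower value in all 3 pools was found for 0 of 10, against 18.7%. Groups without overlap, lower among resistant libraries, were found for 0 of 10 members and for 11.1% of all genes. In either direction 21.3% of all genes lacked overlap. Only the members' upward count without overlap was thus near the share of genes in general. The median difference was 0.20 over the 10 members and 0.013 over all genes tested.

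**Figure D1:**
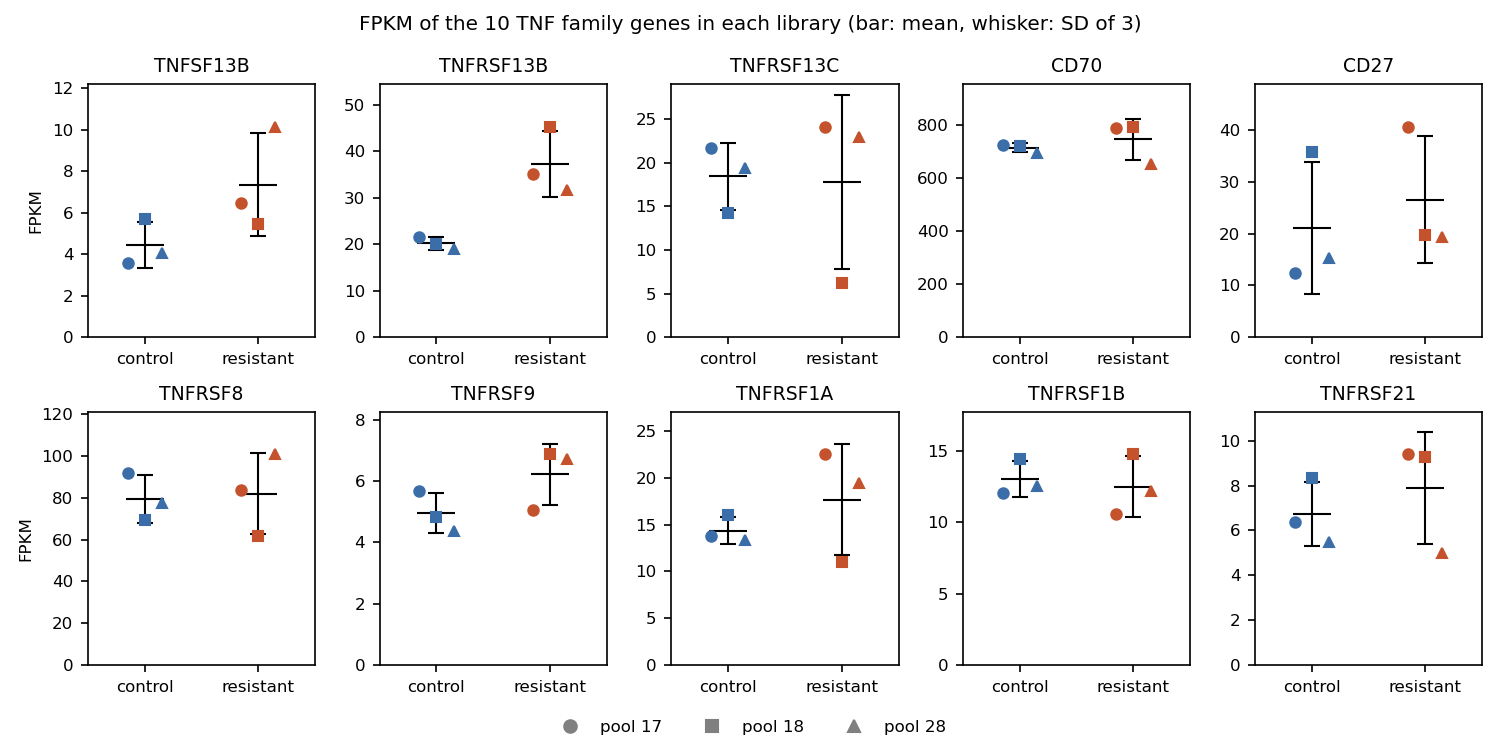
FPKM (linear axis from 0, scaled per panel) of the 10 genes in the 3 control and 3 resistant libraries, with symbols for the pool, a bar at the group mean and whiskers of 1 SD. Only in the TNFRSF13B panel do all resistant libraries (31.6 to 45.4 FPKM) lie above all controls (18.9 to 21.6).

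The sequences before the start sites of 3 members are shown because these genes gave the 3 smallest p-values among the 10. Each is the run of 250 bases before a start site annotated by RefSeq on GRCh38.p14, written 5′ to 3′ on the strand of the gene. TNFRSF13B lies on the minus strand (chr17:16972119-16972368), TNFRSF9 on the minus strand (chr1:7940840-7941089) and TNFSF13B on the plus strand (chr13:108269468-108269717). TNFSF13B has another annotated start further upstream, whose window overlaps this one. Capitals mark matches, on either strand, to the kappaB consensus of NF-kB, to the STAT pattern TTCNNNGAA and to the interferon-response core GAAANNGAA.
TNFRSF13B: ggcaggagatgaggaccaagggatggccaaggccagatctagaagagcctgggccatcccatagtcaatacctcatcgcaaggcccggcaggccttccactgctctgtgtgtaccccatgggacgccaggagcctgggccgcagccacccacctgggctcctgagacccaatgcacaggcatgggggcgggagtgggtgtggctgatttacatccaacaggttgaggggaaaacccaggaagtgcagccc
TNFSF13B: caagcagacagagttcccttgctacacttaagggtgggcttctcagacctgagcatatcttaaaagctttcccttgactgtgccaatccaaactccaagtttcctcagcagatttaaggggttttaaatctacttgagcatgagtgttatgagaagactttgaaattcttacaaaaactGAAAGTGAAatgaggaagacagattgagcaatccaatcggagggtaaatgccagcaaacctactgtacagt
TNFRSF9: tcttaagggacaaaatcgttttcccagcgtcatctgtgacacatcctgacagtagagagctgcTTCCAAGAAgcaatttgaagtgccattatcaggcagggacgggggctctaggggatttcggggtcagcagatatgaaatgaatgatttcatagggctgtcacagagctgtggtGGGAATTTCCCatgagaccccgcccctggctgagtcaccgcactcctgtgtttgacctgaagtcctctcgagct
The TNFRSF13B window held none of the 3 patterns. In the TNFRSF9 window the longer capital run holds overlapping kappaB matches on both strands, and the shorter one is a STAT pattern, which reads as a match on both strands. The TNFSF13B window held 1 interferon-response core. The window of the upstream TNFSF13B start held none of the 3 patterns. Among 35116 annotated windows of the same length, 5.21% held the kappaB consensus, 6.57% the STAT pattern and 6.88% the interferon-response core. RefSeq windows were matched for 8 of the 10 members, and TNFRSF13C and CD70 were not matched. These are matches of letters and no measurement of binding.

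Among the ligand and receptors of BAFF, TNFRSF13B had 21.6, 20.1 and 18.9 FPKM among controls 17, 18 and 28. Its resistant libraries had 35.1, 45.4 and 31.6 FPKM. The controls differed little from each other, every resistant library exceeded every control, and resistant 18 was the highest. The mean was 20.2 ± 1.34 FPKM among controls and 37.4 ± 7.14 among resistant libraries (SD, n = 3 in each group). The log2 difference was 0.84 (SE 0.18, 95% interval 0.41 to 1.27), with a limma adjusted p of 0.179 that missed the threshold. The resistant library was above its control by 1.62-fold in pool 17, 2.25-fold in pool 18 and 1.67-fold in pool 28. Without resistant 18 the difference was 0.70 (adjusted p = 0.0967). With libraries weighted by their scatter it was 0.73 and passed (adjusted p = 0.0352), a fit in which 2.66% of all genes did. Over the other alternatives its adjusted p ran from 0.0967 to 0.923. With trends in GC content and length removed, pools 17, 18 and 28 gave log2 differences of 0.56, 1.39 and 0.45.

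TNFSF13B, the BAFF ligand itself, had 3.57, 5.67 and 4.06 FPKM among controls 17, 18 and 28, and 6.46, 5.45 and 10.1 among the resistant libraries. Resistant 17 and 28 exceeded all controls, and resistant 18 lay just under control 18. Its difference of 0.60 (SE 0.25, 95% interval 0.0055 to 1.19) did not pass (limma adjusted p = 0.379). Without both libraries of pool 18 it was 0.92 (adjusted p = 0.210), and without those of pool 28 it was 0.33. At this low level the pseudocount of 1 shrinks differences, and the ratio of mean FPKM was 1.66. With trends in GC content and length removed, TNFSF13B differed by 0.64, -0.39 and 1.12 in pools 17, 18 and 28, so it was not level in pool 18 under that setting.

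TNFRSF13C, the receptor that binds only BAFF, had 21.7, 14.2 and 19.4 FPKM among the controls and 24.1, 6.23 and 23.0 in resistant 17, 18 and 28. Both libraries of pool 18 were the low ones of their group, and the resistant one was 2.28-fold below its control. Its difference was -0.23 over all libraries (SE 0.48, 95% interval -1.35 to 0.89, limma adjusted p = 0.873), and turned to 0.36 without resistant 18 (adjusted p = 0.304). The ratio of TNFRSF13B to TNFRSF13C FPKM was 0.997, 1.41 and 0.975 in controls 17, 18 and 28. It was 1.45, 7.28 and 1.38 among the resistant libraries, so resistant 18 was far from the others and resistant 28 lay below control 18.

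The partners of these genes had no common direction. TNFRSF17, the BCMA receptor of plasma cells that binds APRIL, had 30.6, 56.0 and 27.3 FPKM among controls and 29.4, 95.1 and 38.4 among resistant libraries. Pool 18 was the high pair in both groups, the groups overlapped, and the log2 difference was 0.39 (limma adjusted p = 0.756). TNFSF13, which encodes APRIL, had 13.3, 14.0 and 14.4 FPKM among controls and 16.3, 6.93 and 6.44 in resistant 17, 18 and 28. Resistant 18 and 28 were below all controls and resistant 17 above them, with a log2 difference of -0.57 (adjusted p = 0.489). Among markers of plasma cells, MZB1 differed by 0.63 (adjusted p = 0.352) and XBP1 by 0.31 (0.525), and both were higher in the resistant library of all 3 pools. Of the 4 such markers tested, 3 had a positive difference and 1 a negative one. The marker with the negative difference declined within each pool, without overlap between the groups. The summed level of the 5 plasma cell markers was 299 to 340 FPKM among controls and 330.3 to 398 among resistant libraries. Its part in the TNFRSF13B values was not tested.

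**Figure D2:**
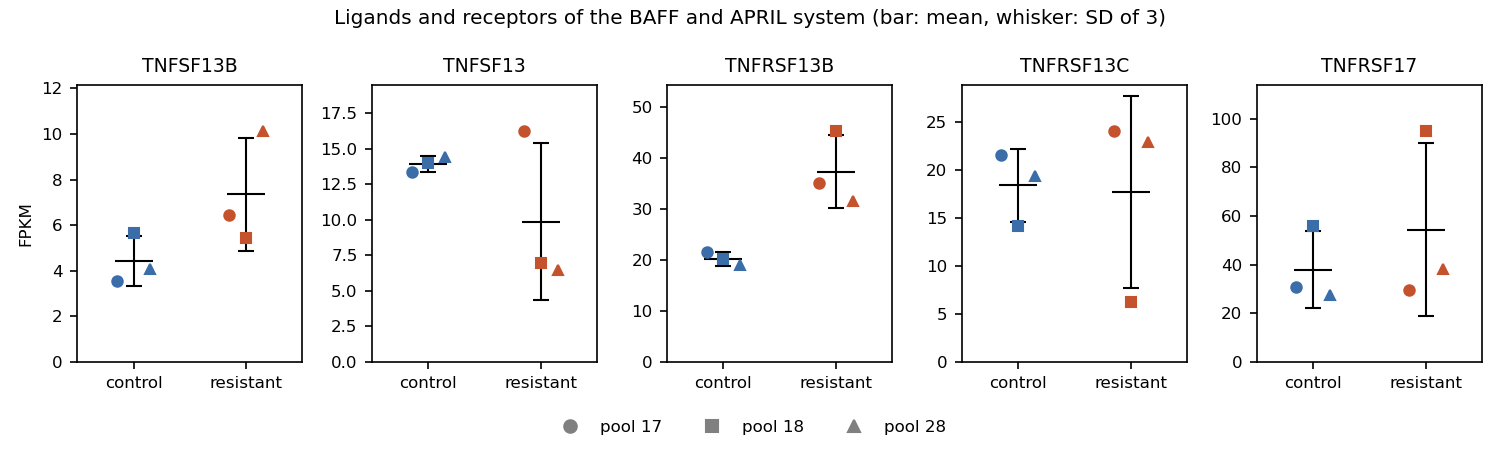
FPKM (linear axis from 0, scaled per panel) of the ligands TNFSF13B (BAFF) and TNFSF13 (APRIL) and the receptors TNFRSF13B, TNFRSF13C and TNFRSF17 in each library, with bars at group means and whiskers of 1 SD. Resistant 18 (squares) has the lowest TNFRSF13C, 6.23 FPKM, and the highest TNFRSF13B and TNFRSF17, 45.4 and 95.1 FPKM.

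CD70, the ligand of CD27, was the most abundant member, above 97.1% of the genes tested by its mean FPKM. It had 726, 721 and 696 FPKM among controls 17, 18 and 28, and 788, 794 and 654 among the resistant libraries. The groups overlapped, with resistant 28 the lowest library and resistant 18 the highest. The log2 difference was 0.055 (SE 0.20, limma adjusted p = 0.934), with a 95% interval of -0.40 to 0.51. Differences in either direction within that interval remain compatible with this fit, so equal levels were not shown. With trends in GC content and length removed, CD70 differed by 0.040, 0.53 and -0.26 in pools 17, 18 and 28. Without that removal the differences were 0.12, 0.14 and -0.089.

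CD27, whose protein is also shed in soluble form, varied between libraries of 1 group. Controls 17, 18 and 28 had 12.3, 35.8 and 15.3 FPKM, and the resistant libraries had 40.7, 19.7 and 19.3. In pool 17 the resistant library was 3.30-fold above its control, in pool 18 it was 1.82-fold below, and in pool 28 it was 1.26-fold above. The log2 difference over the pools was 0.38 (SE 0.44, 95% interval -0.66 to 1.41, limma adjusted p = 0.755). It was 0.98 without both libraries of pool 18 and -0.26 without those of pool 17. CD27 overlaps CD27-AS1, an antisense gene, and TAPBPL in the annotation. Because the use of strand in counting is not given, reads of overlapping genes may not be told apart. CD27-AS1 had 6.68, 4.50 and 5.86 FPKM among controls and 7.81, 7.18 and 9.78 among resistant libraries, an order that differs from that of CD27. CD70 exceeded CD27 by a ratio of 58.8, 20.1 and 45.4 in the controls and 19.3, 40.3 and 33.9 in resistant 17, 18 and 28.

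TNFRSF8, the CD30 receptor, followed CD70 in level. It had 91.8, 69.2 and 77.5 FPKM among controls and 83.6, 61.8 and 101 in resistant 17, 18 and 28. Resistant 17 lay within the controls, resistant 18 below and resistant 28 above them. TNFRSF8 differed by 0.027 (SE 0.23, 95% interval -0.51 to 0.56, limma adjusted p = 0.976). Its ligand gene TNFSF8 was listed at 0 in 4 libraries and had at most 0.0756 FPKM in the others.

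TNFRSF9, a costimulatory receptor, was the least abundant of the 10 by mean FPKM over all libraries. Among controls alone TNFSF13B had a lower mean. TNFRSF9 had 5.67, 4.83 and 4.38 FPKM among controls and 5.06, 6.87 and 6.71 in resistant 17, 18 and 28. Resistant 18 and 28 exceeded all controls, and resistant 17 lay within them. TNFRSF9 differed by 0.27 (SE 0.18, 95% interval -0.14 to 0.68, limma adjusted p = 0.544). Its ligand gene TNFSF9 was more abundant, with 55.5, 53.0 and 48.3 FPKM among controls and 69.1, 34.6 and 54.6 among resistant libraries. TNFSF9 spanned the control range on both sides and differed by -0.039 (adjusted p = 0.970).

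The receptors for TNF itself did not share a pattern. TNFRSF1A, the death domain receptor TNFR1, had 13.8, 16.0 and 13.4 FPKM among controls and 22.5, 11.0 and 19.5 in resistant 17, 18 and 28. Resistant 17 and 28 were above all controls and resistant 18 was below them. TNFRSF1A differed by 0.23 (SE 0.26, 95% interval -0.39 to 0.85, limma adjusted p = 0.749), and 0.59 without both libraries of pool 18 (adjusted p = 0.212). TNFRSF1B, the TNFR2 receptor without a death domain, had 12.1, 14.4 and 12.5 FPKM among controls and 10.6, 14.8 and 12.2 among resistant libraries. Pool 18 was the highest pair in both groups, and the difference was -0.062 (SE 0.17, 95% interval -0.47 to 0.35, adjusted p = 0.914). Among their ligands, TNF had 3.32 to 6.08 FPKM over the 6 libraries and a difference of 0.041 (adjusted p = 0.961). LTA, which encodes lymphotoxin alpha, had 6.18, 16.1 and 7.08 FPKM among controls and 9.54, 9.11 and 0.414 among resistant libraries, so resistant 28 was far below all others. Its difference was -0.91 (SE 0.78, adjusted p = 0.659).

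TNFRSF21, the death domain receptor DR6, had 6.40, 8.32 and 5.49 FPKM among controls and 9.40, 9.30 and 4.99 in resistant 17, 18 and 28. Resistant 17 and 18 exceeded all controls, and resistant 28 was the lowest library. TNFRSF21 differed by 0.17 (SE 0.26, 95% interval -0.45 to 0.79, limma adjusted p = 0.820).

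**Figure D3:**
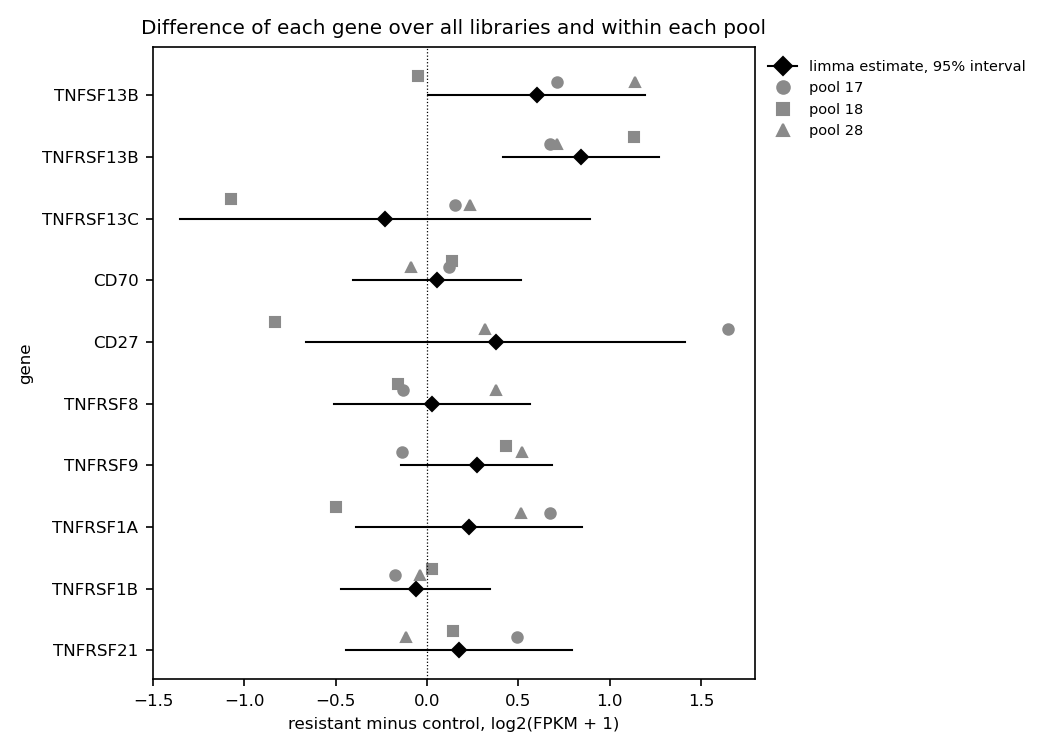
Resistant minus control on the log2(FPKM + 1) scale for the 10 genes, with the limma estimate and its 95% interval over all libraries (black) and the difference within each pool (grey symbols, drawn above the line). TNFRSF13B is the only gene with all 3 pools above 0, at 0.67 to 1.13, and CD27 spreads from -0.83 to 1.64.

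By mean FPKM over all 6 libraries the order was CD70, TNFRSF8, TNFRSF13B, CD27, TNFRSF13C, TNFRSF1A, TNFRSF1B, TNFRSF21, TNFSF13B and TNFRSF9. CD70 and TNFRSF8 were separated from their neighbours in that order in all libraries. From TNFRSF13B to TNFRSF1B each gene's range over the libraries overlapped that of the next, and so it did from TNFRSF21 to TNFRSF9. TNFRSF1B, at 10.6 FPKM or more, and TNFRSF21, at 9.40 or less, did not overlap.

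Between pools the members moved differently. In pool 17, 7 of the 10 were higher in the resistant library and the median difference was 0.32, against -0.027 over all genes tested. In pool 28, 7 were higher and the median was 0.34, against -0.0065. In pool 18, 5 were higher and 5 lower and the median was -0.0095, against 0.049. A difference beyond 1 on the log2 scale in either direction was found for CD27 in pool 17, where 4.17% of all genes passed that size. In pool 18 it was found for TNFRSF13B and TNFRSF13C, in opposite directions, where 12.7% did, and in pool 28 for TNFSF13B, where 8.08% did. With 1 library per arm, differences within or between pools were not tested.

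Chromosomal neighbours were set beside each member as a description. For each member the 10 tested genes on either side were taken, in the order of RefSeq on GRCh38.p14, and no coordinates are compared because the authors' build was hg19. TNFRSF13B, on chromosome 17 between ZNF624 and MPRIP, had neighbours with a median difference of -0.0087, 0.10 and -0.036 in pools 17, 18 and 28. The gene itself differed by 0.67, 1.13 and 0.71. With GC and length trends removed the neighbours' median in pool 18 was 0.34, over 17 matched genes. TNFRSF13C, on chromosome 22, differed by -1.08 in pool 18, where its neighbours' median was 0.033. TNFSF13B, on chromosome 13, differed by 1.14 in pool 28, where its neighbours' median was -0.12. The neighbours of CD27, on chromosome 12, had -0.014 in pool 17 and 0.28 in pool 18, against 1.64 and -0.83 for CD27. For TNFRSF13C, TNFSF13B and CD27 the pools given are those where the gene itself differed most. A neighbour median closer to no difference was likely there from the choice alone, so no conclusion is drawn from it. TNFRSF8 and TNFRSF1B are next to each other among the tested genes of chromosome 1, and CD70 lies between TNFSF9 and TNFSF14 on chromosome 19.

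**Figure D4:**
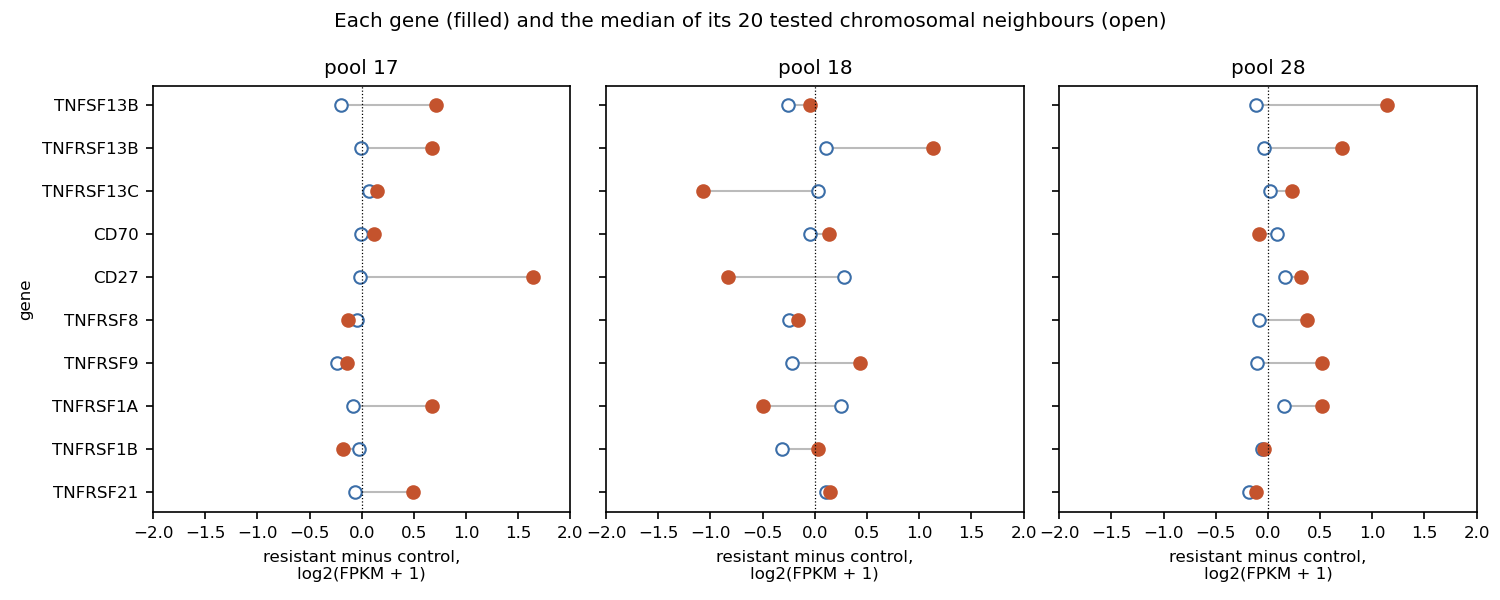
Resistant minus control on the log2(FPKM + 1) scale within each pool for each of the 10 genes (filled) and the median of its 20 nearest tested genes on the chromosome (open). TNFRSF13B lies at 0.67, 1.13 and 0.71 in pools 17, 18 and 28 and its neighbours' median at -0.0087, 0.10 and -0.036.

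Other genes of the superfamily and its signalling did not pass either. Among 21 other receptors, 14 were tested, 0 passed limma's adjusted threshold, and 3 reached an unadjusted p under 0.05, all lower among resistant libraries. TNFRSF4, the OX40 receptor, had 5.81, 6.13 and 3.60 FPKM among controls and 1.52, 0.266 and 0.221 in resistant 17, 18 and 28. The groups did not overlap, as for 4 of the 14 in the lower direction, where 11.1% of all genes did so. TNFRSF4 differed by -1.95 (SE 0.33, limma adjusted p = 0.158). TNFRSF10D, a decoy receptor for TRAIL, differed by -0.59 (SE 0.23, adjusted p = 0.357). TNFRSF18, the GITR receptor, named after its values were seen, differed by -0.79 (SE 0.32, adjusted p = 0.363). The list's median difference was -0.064.

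Among 16 other ligands, 8 were tested, and 0 passed or had an unadjusted p under 0.05. TNFSF10, the TRAIL ligand, differed by 0.38 (limma adjusted p = 0.459), and the list's median difference was -0.083. Among 28 adaptors and regulators 0 passed and 4 had an unadjusted p under 0.05, 3 of them higher and 1 lower. TRAF3IP3, which binds TRAF3, had 25.8, 34.9 and 17.8 FPKM among controls and 53.1, 38.9 and 61.3 among resistant libraries, without overlap, and differed by 0.96 (SE 0.28, adjusted p = 0.240). TRADD, the death domain adaptor of TNFRSF1A, differed by 0.81 (SE 0.28, adjusted p = 0.297). It had 16.7 to 20.0 FPKM among controls, and 43.2, 21.6 and 41.1 in resistant 17, 18 and 28. Groups did not overlap for 7 of the 28 upward and for 4 downward, against 10.1% and 11.1% of all genes, and the list's median difference was 0.16.

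Of 12 NF-kB genes 0 passed and 2 had an unadjusted p under 0.05. RELA, a subunit of classical NF-kB, had 14.9 ± 0.898 FPKM among controls and 10.5 ± 1.23 among resistant libraries, with a difference of -0.47 (SE 0.15, limma adjusted p = 0.285). IKBKG, the regulatory subunit of the IkB kinase, had 7.92 ± 3.33 and 13.2 ± 0.849 FPKM, with 0.73 (SE 0.26, adjusted p = 0.304). The list's median was 0.034. Of 5 genes that shed or process these proteins 4 were tested, and 0 passed or had an unadjusted p under 0.05. RHBDF2, a partner of the sheddase ADAM17, differed by -0.33 (adjusted p = 0.453) and ADAM17 by 0.23 (0.592).

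The 5 tested genes whose values were most like those of TNFRSF13B were FKBP5, DYNLL2, TRIM21, CAAP1 and HNRNPU. Likeness was the root-mean-square distance of log2(FPKM + 1) values, centred on each gene's mean, over the 6 libraries. It ran from 0.0681 for FKBP5 to 0.0971 for HNRNPU. FKBP5, a co-chaperone of steroid receptors, had 12.8, 11.1 and 11.5 FPKM among controls and 20.0, 29.3 and 17.9 in resistant 17, 18 and 28, with resistant 18 the highest as for TNFRSF13B. None of these 5 passed (limma adjusted p from 0.158 to 0.220). TNFRSF13B was taken for this search because its difference between groups was the largest of the members. The 5 genes were picked by likeness over the same 6 libraries, so a shared order and similar p-values follow from the choice.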

How the data were processed

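The deposited values are FPKM per the file headers, 1 value per gene symbol, written with decimal commas by the authors. Per the submitters' processing notes, the tools were Cufflinks 2.2.1, TopHat2 2.0.4, DESeq2 and HTSeq 0.6.1, and the genome build was hg19. Their roles, the annotation, the library type and the use of strand were not stated there.

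Genes with at least 1 FPKM in at least 3 of 6 libraries were fitted in R 4.3.3 by limma 3.58.1 on the log2(FPKM + 1) scale (two-sided moderated test, eBayes with trend, Benjamini-Hochberg over all genes tested, threshold 0.05). The pseudocount of 1 understates changes of low genes. The script was tested on simulated data. Differences within a pool are values of libraries that share a number, since the series describes its pools as paired. The labels do not say that pools were separate cultures throughout, so the p-values reflect library-to-library spread only.

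The members and the 10 other gene lists were chosen with earlier results of these data known. Named genes are all members, their ligands or receptors, the 2 smallest p-values of each pathway list and the 5 nearest patterns; 1 marker gene is not reported here. Symbols were matched to GENCODE 29 for GC content and length (87.7% of tested genes). Alternatives covered the pseudocount, the filter, quantile normalization, library weights, GC and length trends, a replicate block and left-out libraries and pools.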

Additional observations from a re-analysis of the deposited data

How the results depend on the processing

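In limma, 0 of the 10 members passed the adjusted threshold and 2 had an unadjusted p under 0.05. Under 16 alternatives the members' count changed with library weights alone, where TNFRSF13B passed (1 member, difference 0.73, adjusted p = 0.0352). TNFRSF13B kept its direction in all 16, between 0.69 and 0.95. Every resistant library lay above every control for this gene. Leaving out libraries or changing the pseudocount could therefore not turn its sign, and no conclusion is drawn from the kept direction. Over all genes, 4 passed, 301 with library weights, 0 when the block was joined to removal of GC and length trends, and 3 to 18 with a library or pool left out and the same 11307 genes tested; the high counts were 8 without resistant 17, 13 without resistant 18 and 18 without pool 18. The sign of 4 members turned. TNFRSF13C had 0.35 with library weights, 0.36 without resistant 18 and 0.19 without pool 18. TNFRSF8 had -0.088 with quantile normalization, -0.067 without control 18, -0.13 without resistant 28 and -0.15 without pool 28. TNFRSF1B had 0.0098 without control 18 and 0.044 without resistant 17, and CD27 had -0.26 without pool 17. With a library or pool left out, the full ranges were -0.54 to 0.36 for TNFRSF13C, -0.15 to 0.21 for TNFRSF8, -0.18 to 0.044 for TNFRSF1B and -0.26 to 0.98 for CD27. The cause was not tested. A pseudocount of 5 moved the pool 28 difference of TNFSF13B to 0.74 and that of TNFRSF9 to 0.32.

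With the pool number as a replicate block, 3 genes and 0 members passed, and TNFRSF13B had an adjusted p of 0.240 at a difference of 0.84. Same-numbered libraries deviated from their group means with correlations across genes of 0.148, 0.0892 and -0.0243 in pools 17, 18 and 28, and control 17 correlated more with resistant 28 (0.173) than with resistant 17, so the numbers marked little shared variation.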
